A study of Mus musculus with 2 samples.

Results

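The collagen genes of the mouse were followed across the cell types of the embryo at embryonic day 9.5 and between wild-type and Usb1-null embryos. Members were all genes whose symbol is Col, a type number, the letter a and a chain number, such as Col1a1. This gave 44 of the 32285 genes in the files. They were grouped into 11 fibrillar collagens, 8 basement membrane collagens and 25 other collagens. The data were 2 libraries of single cells, 1 from wild-type embryos and 1 from embryos with a germline knockout of Usb1, which encodes a nuclease that trims the end of U6 small nuclear RNA. Per the study's methods the null allele was made with a pair of guide RNAs around exon 2, while elsewhere the study describes a loss of exons 1 and 2, and the embryos came from crosses of heterozygous mice. Whole embryos were dissociated and cells were barcoded with the 10x Genomics 3′ chemistry, in which each captured transcript carries a unique molecular identifier (UMI) and is counted near its 3′ end. The number of embryos pooled for a library was not stated.

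Collagens are trimers of chains wound into a triple helix, and each chain carries glycine at regular intervals. Fibrillar collagens assemble into the banded fibres that give connective tissue, cartilage and bone their tensile strength. Type IV collagen instead forms the sheet-like network of basement membranes, on which epithelia and blood vessels rest. The remaining types decorate fibrils, span the cell membrane or form finer networks. At mid-gestation most embryonic matrix is young, and basement membranes are laid down before the large fibres of bone and skin.

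After filtering, 15161 wild-type and 13018 Usb1-null cells remained, with 21732106 and 33383886 UMIs. Wild-type cells had a median of 1243 UMIs and Usb1-null cells of 2299.5. Levels are given as CPM, the UMIs of a gene per 1000000 UMIs of the library or cluster. Usb1 itself had 68 wild-type UMIs (3.13 CPM) and 47 Usb1-null UMIs (1.41 CPM). The 3′ counts need not lie in the deleted part, so these UMIs do not check the label. The libraries also differed in sex. Xist, the RNA of the inactive X chromosome, had 53276 wild-type and 26 Usb1-null UMIs, whereas 4 Y-linked genes had 14 and 23463 in that order. Genotype and sex can therefore not be told apart in any value below. The labels name the molecule as nuclear RNA and the protocol describes single cells, and mitochondrial genes held 0.435% and 0.191% of the UMIs. A total of 61 barcodes occurred in both libraries, 0.402% and 0.468% of each. With 1 library per genotype there is no test of any difference, and the 95% intervals given here cover counting error only.

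Collagen UMIs were found in most cells. The wild-type library held 51091 collagen UMIs, a summed level of 2351 CPM, and the Usb1-null library held 67586, a level of 2025 CPM. At least 1 collagen UMI was found in 82.4% of wild-type and 91.7% of Usb1-null cells, at the unequal depths given above. The collagen share of a cell's UMIs had a median of 0.177% (wild-type) and 0.164% (Usb1-null), and the top 1% of cells lay above 0.971% and 0.712%. All 44 genes had UMIs in both libraries, and 32 had at least 100 UMIs over both, namely 10 fibrillar, 7 basement membrane and 15 other collagens. Levels of different genes are set side by side below as UMIs, which are not scaled by gene length. Whether intronic reads were counted was not stated, and the part of gene length in these levels was not tested.

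The chains of type I collagen were not among the 10 collagens with the most UMIs. Col23a1, a transmembrane collagen, came first with 7717 wild-type and 9868 Usb1-null UMIs (355 and 296 CPM). Col18a1, a proteoglycan of basement membranes and the source of endostatin, followed with 6358 and 8034 UMIs. Col26a1 (5099 and 6360 UMIs), the type IV chains Col4a1 (4127 and 5721) and Col4a6 (2561 and 4617), and the fibrillar Col3a1 (3353 and 3520) came next. Col4a2, Col4a5, Col11a1 and Col5a2 completed the 10 genes with the most UMIs. Col1a1 and Col1a2, the chains of the fibres of skin and bone, had 792 and 1446 UMIs in the wild-type library.

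The 12 genes with fewer than 100 UMIs over both libraries are given by their counts, wild-type first. Among chains of the kidney and lung basement membrane, Col4a3 had 24 and 25 UMIs. Of the beaded filament collagens of type VI, Col6a1 had 41 and 47, Col6a3 had 45 and 44, Col6a6 had 11 and 19, Col6a5 had 3 and 5 and Col6a4 had 2 and 3. The hypertrophic cartilage collagen Col10a1 had 11 and 37, and the hemidesmosome collagen Col17a1 had 13 and 39. Col8a2 had 47 and 52, Col20a1 had 33 and 32, Col5a3 had 21 and 24 and Col28a1 had 18 and 13. Counts of this size leave wide intervals. The ratio of Col10a1, for example, was 2.19 with an interval of 1.09 to 4.76.

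Cells were sorted into 21 clusters from variable genes that held no collagen, and the 19 of them that held 100 or more cells of each genotype were compared. Clusters were called by a cell type, with the suffix -like, where marker genes allowed it. Some kept a number. Cluster 6 was led by Sox10, Tfap2b and Dlx2, cluster 9 by Prrx1, Tbx5 and Fgf10, and cluster 10 by Ebf1, Ddr2 and Tbx1. Cluster 13 was led by Tlx1, Tbx1 and Gfra1, cluster 14 by Nepn, Rfx6, Cubn and Afp, and cluster 17 by Lmx1a and Tbx2. Cluster 14 had 8 of 10 gut endoderm and 8 of 9 yolk sac endoderm markers raised. The cluster called ventral neural tube-like had 8 of 9 markers of that list raised and 4 of 7 of notochord, and its leading marker Shh is in both lists. The one called lateral plate mesoderm-like had 9 of 10 markers of that list raised and 7 of 8 of epicardium. Cluster 7 had few UMIs per cell and no marker among its leading genes. Levels within clusters are descriptions, since the cells were grouped by their own transcripts.

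**Figure D1:**
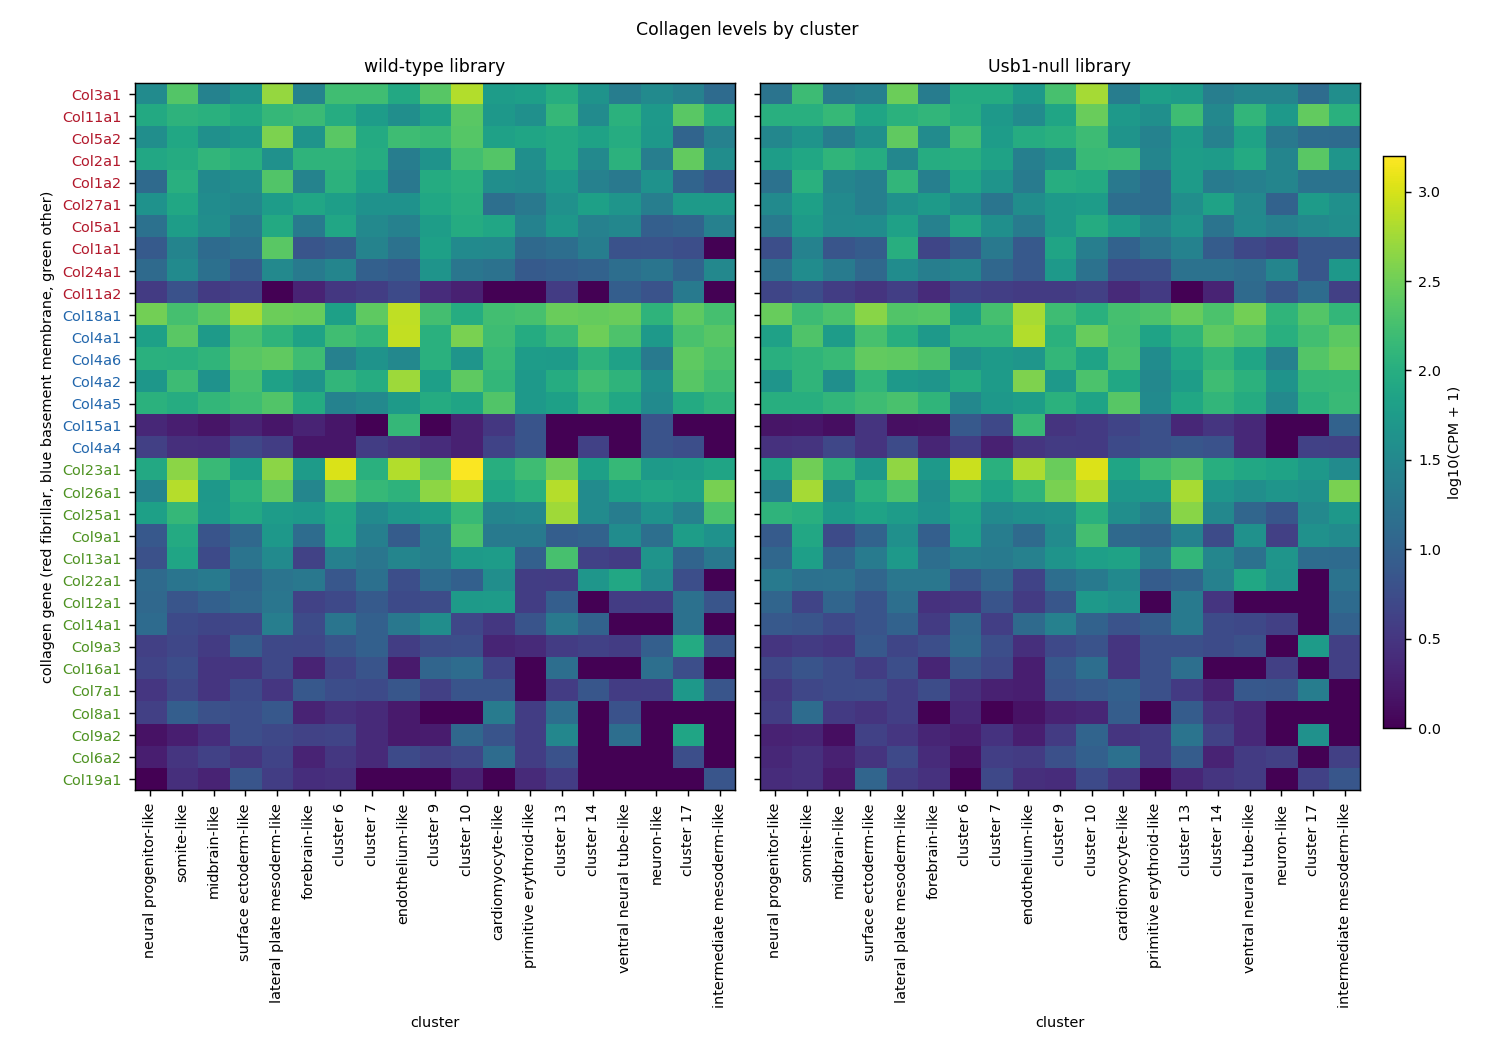
Level of each collagen gene with at least 100 UMIs (rows) in each compared cluster (columns), as log10 of CPM plus 1, in the wild-type library (left) and the Usb1-null library (right). Col15a1 was bright in the endothelium-like column, Col1a1 in the lateral plate mesoderm-like column and Col25a1 in cluster 13, in both libraries.

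The highest collagen levels were in cluster 10, endothelium-like cells and lateral plate mesoderm-like cells. Cluster 10 had 5254 CPM of collagen in the wild-type and 4425 CPM in the Usb1-null library. Endothelium-like cells followed with 3688 and 3070 CPM and lateral plate mesoderm-like cells with 3587 and 2780 CPM. Somite-like cells (3098 and 2594 CPM) and cluster 13 (3095 and 2663 CPM) had similar sums, and their wild-type values lay close together. Neuron-like cells were lowest, with 838 and 795 CPM, of which Col18a1 gave 121 and 123. Primitive erythroid-like cells, blood cells not known to make collagen, still held 1119 and 929 CPM, led by Col18a1 at 185 and 202 CPM. Here the 10 collagens with the most UMIs stood at 0.385 to 0.637 of the level in all other wild-type cells and at 0.253 to 0.838 in the Usb1-null library. Free RNA in the droplets can give UMIs of this kind, and its part in the levels of other clusters was not tested. Levels near those of the erythroid-like cells are not read as expression.

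Of the fibrillar collagens, Col3a1, Col5a2 and Col1a1 were highest in cluster 10 or in lateral plate mesoderm-like cells. Col3a1, the partner of type I collagen in soft tissues, was highest in cluster 10 at 674 CPM (wild-type) and 591 CPM (Usb1-null), and second highest in lateral plate mesoderm-like cells at 494 and 300.02 CPM. Col5a2, a chain of the fibrils that seed type I fibres, was highest in lateral plate mesoderm-like cells at 374 and 258 CPM. Col1a1 was more concentrated in 1 cluster in the wild-type than in the Usb1-null library. Lateral plate mesoderm-like cells had 238 and 99.5 CPM, 14 and 7.14 times the mean of the other clusters. They held 427 of the 792 wild-type UMIs and 268 of the 712 Usb1-null UMIs, while cluster 9 held 85 and 143. A Col1a1 UMI was seen in 15.7% of wild-type and 15.2% of Usb1-null lateral plate mesoderm-like cells. In the erythroid-like cells the shares were 1.17% and 2.13%. Thinned to 500 UMIs per cell, the lateral plate shares were 7.77% and 3.47%. The median depths were 1299 and 2352 UMIs for lateral plate and 839.5 and 1725.5 for erythroid-like cells.

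Col2a1, the main collagen of cartilage and of the notochord sheath, had another distribution. It was highest in cluster 17 at 267 and 239.7 CPM, about 3 times the mean of the other clusters in both libraries (3.07 and 3.29). Cardiomyocyte-like cells had 221 and 151 CPM of Col2a1, and midbrain-like cells had 125 and 124 CPM. Col11a1, which caps cartilage fibrils, was the collagen with the most UMIs in cluster 17 over both libraries (242 and 268 CPM), and reached 239.8 and 297 CPM in cluster 10.

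Basement membrane collagens fell into separate patterns. Col4a1 and Col4a2, the chains found in nearly all basement membranes, were highest in endothelium-like cells. Col4a1 reached 811 and 679 CPM there and Col4a2 reached 531 and 381 CPM. A Col4a1 UMI was found in 64.3% of wild-type and 73.8% of Usb1-null endothelium-like cells, against 7.86% and 6.38% of the erythroid-like cells. The levels of the pair followed each other over the 19 clusters (Spearman's rho 0.94 in each library, a description over points that share a library). Col4a5 and Col4a6, the chains of a second type IV network, were highest in other cells. In the wild-type library both peaked in lateral plate mesoderm-like cells, Col4a5 at 214 CPM, as in cardiomyocyte-like cells, and Col4a6 at 265 CPM, and Col4a6 was high in surface ectoderm-like cells at 233 CPM. In intermediate mesoderm-like cells Col4a6 had 194 and 292 CPM, 1.79 and 2.4 times the mean of the other clusters. Endothelium-like cells had 29.9 CPM of Col4a6, and a Col4a6 UMI was found in 4.46% of them, close to the 4.52% of the erythroid-like cells. Col4a1 and Col4a5 showed no shared order over clusters, with rho of 0.02 and 0.

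The other members of this group had their own sites. Col15a1, a proteoglycan of vascular basement membranes, was the most restricted collagen of all. Endothelium-like cells had 136 and 142 CPM, 119.9 and 61.1 times the mean of the other clusters. Col18a1 was high in endothelium-like cells (786 and 598 CPM) and in surface ectoderm-like cells (622 and 429.7 CPM). It was also the collagen with the most UMIs in several neural clusters, at 326 and 283 CPM in neural progenitor-like, 286 and 224 in forebrain-like and 246 and 198 in midbrain-like cells. The erythroid-like cells had 185 (155 to 219.8) and 202 (160.1 to 251) CPM of Col18a1, so the Usb1-null values of forebrain-like and midbrain-like cells are not told from background. The type IV chain Col4a4 had 47 and 91 UMIs with no cluster above 6.25 CPM.

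Among the other collagens, the transmembrane Col23a1, Col25a1 and Col13a1 were highest in clusters that kept a number. Col23a1 reached 1520 and 1080 CPM in cluster 10 and 1034 and 869.9 CPM in cluster 6, and had the most UMIs of any collagen in both. A Col23a1 UMI was found in 73.8% and 79.3% of cluster 10 cells, against 8.86% and 14.9% of the erythroid-like cells. Col25a1, a transmembrane collagen needed for motor innervation of muscle, was highest in cluster 13 at 547 and 425 CPM, 8.33 and 8.27 times the mean of the other clusters. Col13a1, a transmembrane collagen of neuromuscular junctions, was also highest there at 187 and 129 CPM. Col26a1 was highest in cluster 10 (722 and 657 CPM), with similar levels in somite-like cells (706 and 583 CPM) and cluster 13 (696 and 609.7 CPM). In somite-like cells it had the most UMIs of any collagen. It also had the most UMIs in intermediate mesoderm-like cells, at 351 and 359.6 CPM.

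Fibril-associated and network collagens differed in their highest clusters. Col9a1, a chain of the collagen that coats cartilage fibrils, was highest in cluster 10 at 196 and 174 CPM, whereas its partner chains Col9a2 (74.2 and 40.5 CPM) and Col9a3 (89.1 and 56 CPM) were highest in cluster 17, from 13 to 18 UMIs per library. The anchoring fibril collagen Col7a1 was highest in the same cluster at 49.5 and 21.8 CPM. Col12a1 had its highest wild-type level in cardiomyocyte-like cells, at 56 CPM against 42.4 CPM in the Usb1-null library. Col14a1 was highest in cluster 9 at 35.8 and 24.5 CPM. Col22a1 was highest in ventral neural tube-like cells at 83 and 79.9 CPM. Col8a1 was highest in cardiomyocyte-like cells of the wild-type library at 20.6 CPM and in somite-like cells of the other at 12.4 CPM. Col16a1 had 87 and 146 UMIs, with no cluster above 13.8 CPM. For 18 of the 32 collagens the order of the 19 clusters was alike in the libraries, with rho of at least 0.8. Among the lowest values were Col7a1 (-0.04), Col4a4 (0.04), Col15a1 (0.11), whose UMIs lay mostly in 1 cluster, and Col19a1 (0.12).

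To show the regions that precede these genes, the 250 bases before the RefSeq start are given for genes whose values are set against each other below. RefSeq windows (GRCm38.p6) were found for 35 of the 44 collagens. Col3a1 was lower in the Usb1-null library, Col11a1 was not, Col4a6 was higher and Col23a1 had the most UMIs. P4ha1 and Ppib encode enzymes of collagen folding, of which P4ha1 was higher and Ppib lower. None of these windows overlapped an annotated exon. The windows lie at chr1:45311288-45311537 (Col3a1, plus strand), chr3:114030290-114030539 (Col11a1, plus), chrX:141474077-141474326 (Col4a6, minus), chr11:51289670-51289919 (Col23a1, plus), chr10:59323046-59323295 (P4ha1, plus) and chr9:66059919-66060168 (Ppib, plus). Each runs 5′ to 3′, and capitals mark 4 motifs on either strand, namely the CCAAT box, the GC box with the letters GGGCGG, the TATA box with the letters TATAAA and a short core with the letters ACGTG, found in hypoxia response elements, which do not contain each other.
Col3a1: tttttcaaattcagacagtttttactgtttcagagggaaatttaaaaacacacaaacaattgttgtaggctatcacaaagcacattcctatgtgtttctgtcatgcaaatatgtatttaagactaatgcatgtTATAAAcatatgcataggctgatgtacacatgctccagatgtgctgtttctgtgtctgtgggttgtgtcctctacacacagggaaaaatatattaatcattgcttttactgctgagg
Col11a1: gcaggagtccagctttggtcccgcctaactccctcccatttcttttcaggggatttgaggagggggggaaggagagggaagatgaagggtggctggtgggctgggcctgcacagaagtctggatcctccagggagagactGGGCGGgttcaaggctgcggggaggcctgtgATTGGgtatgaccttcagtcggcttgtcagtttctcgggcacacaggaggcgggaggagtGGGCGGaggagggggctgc
Col4a6: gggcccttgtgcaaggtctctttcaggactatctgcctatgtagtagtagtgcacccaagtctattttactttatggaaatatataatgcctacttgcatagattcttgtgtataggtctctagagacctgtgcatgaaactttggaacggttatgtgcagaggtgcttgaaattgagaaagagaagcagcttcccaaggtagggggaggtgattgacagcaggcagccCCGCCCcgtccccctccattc
Col23a1: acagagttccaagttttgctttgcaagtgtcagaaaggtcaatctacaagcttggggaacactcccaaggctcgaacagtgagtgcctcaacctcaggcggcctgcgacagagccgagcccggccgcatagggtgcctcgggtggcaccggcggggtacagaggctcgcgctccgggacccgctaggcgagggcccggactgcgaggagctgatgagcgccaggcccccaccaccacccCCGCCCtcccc
P4ha1: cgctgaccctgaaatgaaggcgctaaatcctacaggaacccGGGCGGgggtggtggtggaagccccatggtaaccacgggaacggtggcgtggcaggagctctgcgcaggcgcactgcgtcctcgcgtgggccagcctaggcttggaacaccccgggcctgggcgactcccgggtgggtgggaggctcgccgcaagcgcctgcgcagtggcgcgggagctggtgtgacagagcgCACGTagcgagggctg
Ppib: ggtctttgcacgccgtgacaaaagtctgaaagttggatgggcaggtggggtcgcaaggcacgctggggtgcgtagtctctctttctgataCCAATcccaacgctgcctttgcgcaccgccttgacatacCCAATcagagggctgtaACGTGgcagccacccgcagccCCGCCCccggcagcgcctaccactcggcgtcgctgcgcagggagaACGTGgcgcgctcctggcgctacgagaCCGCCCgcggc

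The window of Col3a1 held the TATA box and none of the other motifs, whereas that of Col11a1 held the CCAAT box and the GC box. Col4a6 and Col23a1 held the GC box alone. Both P4ha1 (1 match) and Ppib (2 matches) held the ACGTG core. This core was in 11 of 38 windows of the genes that modify or bind collagen (28.9%, against 16.6% of all genes). In the same 38 windows the GC box was in 24 (63.2%, against 32.9%). The CCAAT box was in 11 (28.9%, against 34.5%) and the TATA box in 5 (13.2%, against 13%). Over the collagens, the CCAAT box was in 12 of 35 windows (34.3%, against 34.5% of 27025 genes, with the first listed window of each gene), the GC box in 21 (60%, against 32.9%), the TATA box in 5 (14.3%, against 13%) and the ACGTG core in 5 (14.3%, against 16.6%). A match describes letters and not a bound site.

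The comparison between genotypes asked whether matrix genes differed between these libraries, first in the sums over all cells. Summed collagen was lower in the Usb1-null library, and the fibrillar group differed most. Fibrillar collagens stood at 691 CPM in the wild-type and 550.3 CPM in the Usb1-null library, a ratio of Usb1-null over wild-type of 0.797 (0.78 to 0.814). Basement membrane collagens stood at 852 and 779.6 CPM (ratio 0.915, 0.898 to 0.933) and other collagens at 809 and 695 CPM (0.859, 0.842 to 0.876). All collagens together gave 0.861 (0.851 to 0.871). A sum over a library cannot tell fewer cells of a type from less RNA per cell. With both libraries weighted to the cluster shares of the wild-type library, the ratios were 0.799, 0.893 and 0.86.

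Few collagens passed a fold of 1.5. Col1a1, Col5a2 and Col9a2 were lower by this fold in Usb1-null cells, 3 of the 32 genes with at least 100 UMIs (9.38%), beside 5.43% of all 15031 genes with that many UMIs. Col19a1 was higher by this fold, 1 of 32 (3.12%), beside 6.95% of all genes. Its ratio was 1.5 without doublets and 1.65 with cells thinned to 500 UMIs, and in neither setting did it meet both the fold and the bound of 100 UMIs. At wild-type cluster shares Col1a1 and Col9a2 were lower (6.25%, beside 4.97% of all genes) and Col19a1 was higher (3.12%, beside 6.8%). The shares lie near the background, and a count of 3 is small. The centre of the group lay lower than that of all genes. The median log2 ratio was -0.16 over the 32 collagens and -0.01 over all genes tested, and 20 of the 32 had a ratio below 1. For the 10 fibrillar genes the median was -0.30, with 7 below 1. For the 7 basement membrane genes it was 0.08, with 3 below 1, and their lower sum came mainly from Col18a1, Col4a2 and Col4a1, while the abundant Col4a6 and Col4a5 had ratios above 1. For the 15 others it was -0.16, with 10 below 1.

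**Figure D2:**
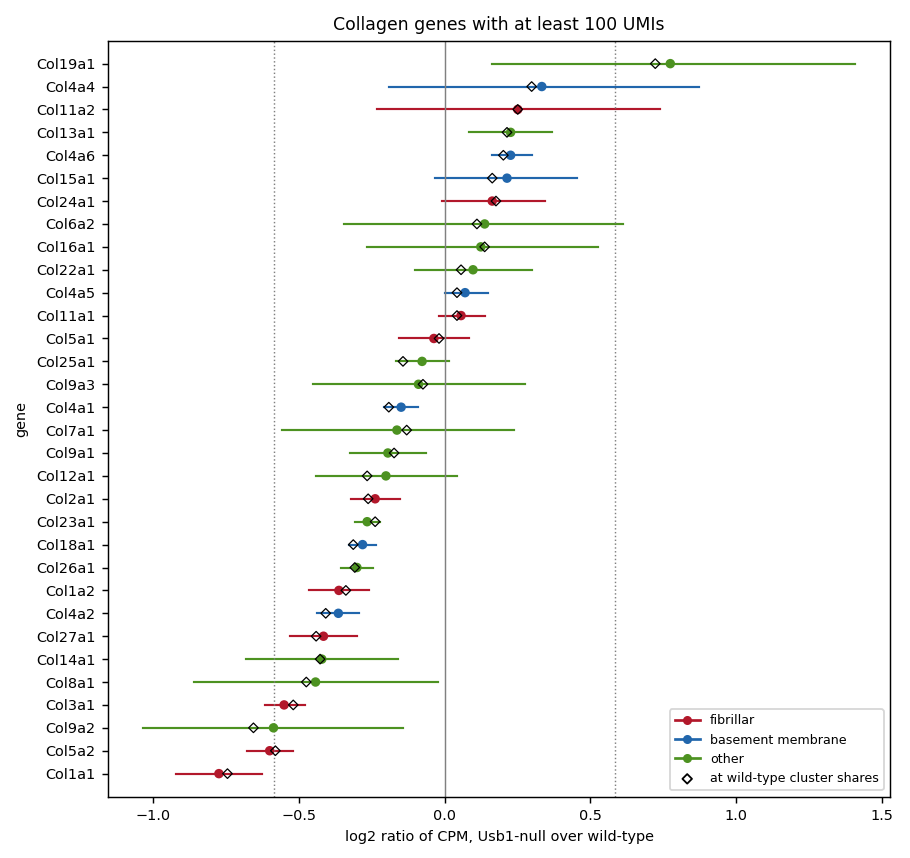
Log2 ratio of CPM, Usb1-null over wild-type, for the 32 collagens with at least 100 UMIs. Dots are library-wide ratios with 95% counting intervals coloured by group, diamonds are ratios at wild-type cluster shares, and dotted lines mark 1.5-fold. Col1a1 and Col5a2 lie lowest and Col19a1 highest, and the diamonds stay close to the dots.

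Col1a1 showed the lowest ratio of the 32 collagens with at least 100 UMIs. It lies at chr11:94936224-94953042 on the plus strand in GRCm38 and had 792 UMIs in the wild-type and 712 in the larger Usb1-null library, 36.4 and 21.3 CPM (ratio 0.585, 0.528 to 0.648). In lateral plate mesoderm-like cells, which held most of its wild-type UMIs, 427 and 268 UMIs gave a ratio of 0.417 (0.357 to 0.487). It passed 50 UMIs in 3 further clusters, and its highest ratio in these was 1.12. With finer clusters, the site with most Col1a1 (a part with 486 wild-type and 373 Usb1-null cells) had 405 and 157 CPM, a ratio of 0.388 (0.318 to 0.472). This part took no name, with 6 of 10 lateral plate mesoderm and 6 of 8 epicardium markers raised. The other finer clusters with counts had ratios of 0.536 (lateral plate mesoderm-like), 0.787, 0.864 and 1.13, the last with an interval of 0.854 to 1.49. Its partner Col1a2 had a ratio of 0.778 (0.725 to 0.835) over the library and 0.605 (0.522 to 0.702) in lateral plate mesoderm-like cells.

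Col3a1 and Col5a2 were lower in several cell types. These neighbouring genes lie on chromosome 1, Col3a1 at 45311538-45349706 on the plus strand and Col5a2 at 45374321-45503282 on the minus strand. Col3a1 had 154 and 105 CPM (ratio 0.683, 0.652 to 0.717), just short of 1.5-fold, and Col5a2 had 117 and 77.3 CPM (0.66, 0.625 to 0.698), just past it. Of the 14 clusters with at least 50 Col3a1 UMIs, 13 had a ratio below 1, and in 11 the counting interval lay below 1. For Col5a2 the ratio was below 1 in 15 of 15 clusters and the interval in 10. Many of these levels lay near those of the erythroid-like cells. Only 4 clusters for Col3a1 and 5 for Col5a2 lay above the upper bound of the erythroid-like level in both libraries, and in these the interval was below 1 in 4 of 4 and 5 of 5. In lateral plate mesoderm-like cells Col3a1 had a ratio of 0.607 (0.551 to 0.668) and Col5a2 of 0.69 (0.619 to 0.768). In endothelium-like cells Col5a2 had 0.581 (0.481 to 0.702), while the Usb1-null level of Col3a1 there, 52 CPM, was not above the erythroid-like level. In the erythroid-like cells the ratio was 1.01 (0.591 to 1.68) for Col3a1 and 0.335 (0.152 to 0.664) for Col5a2, the latter from 53 and 10 UMIs.

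The other fibrillar genes differed among themselves. Col5a1, the partner of Col5a2, had 44.5 and 43.4 CPM (ratio 0.975, 0.898 to 1.06), and Col11a1 had 101 and 106 CPM (1.04, 0.988 to 1.1). Col24a1 had 19.2 and 21.6 CPM (1.12, 0.994 to 1.27), with a ratio below 1 in 0 of 7 clusters. The cartilage chain Col11a2 had 57 and 104 UMIs (1.19, 0.852 to 1.67). Col27a1 was lower, at 53.6 and 40.2 CPM (0.75, 0.693 to 0.812), with a ratio below 1 in 10 of 11 clusters and an interval below 1 in 6. Col2a1 was lower at 94 and 79.7 CPM (0.848, 0.8 to 0.899), with a ratio below 1 in 14 of 16 clusters and an interval below 1 in 4.

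Type IV chains differed by pair. Col4a1 had 189.9 and 171 CPM (0.902, 0.867 to 0.939) and Col4a2 had 133 and 103 CPM (0.777, 0.739 to 0.817). Col4a5 had 105 and 111 CPM (1.05, 1 to 1.11). Col4a6 had 118 and 138 CPM (1.17, 1.12 to 1.23), with an interval above 1 in 8 of the 18 clusters counted. Among these were forebrain-like (158 and 209 CPM) and surface ectoderm-like cells (233 and 271 CPM). Only 11 clusters lay above the upper bound of the erythroid-like Col4a6 level in both libraries, and 4 of them had an interval above 1. Col4a5 and Col4a6 are next to each other on the X chromosome, at 141475385-141689234 and 141165403-141474076, and the libraries differ in sex as given above. Col18a1 was lower at 293 and 241 CPM (0.823, 0.796 to 0.85), with an interval below 1 in 9 of 19 clusters and above 1 in 0. Only 5 clusters lay above the erythroid-like bound of Col18a1 in both libraries, and 3 of them had an interval below 1. In the erythroid-like cells the Col18a1 ratio was 1.09 (0.815 to 1.45). In surface ectoderm-like cells the ratio of Col18a1 was 0.69 (0.637 to 0.748).

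In the remaining collagens, Col23a1 and Col26a1 were lower and the other genes went both ways. Col23a1 had a ratio of 0.832 (0.808 to 0.858) and Col26a1 of 0.812 (0.782 to 0.843). Col25a1, next in UMIs among the other collagens, had 0.948 (0.891 to 1.01). In cluster 6 Col26a1 had 234 and 117 CPM, a ratio of 0.5 (0.428 to 0.584). Col9a2 had 86 and 88 UMIs (0.666, 0.489 to 0.907) and Col8a1 had 92 and 104 UMIs (0.736, 0.551 to 0.985). Col13a1 had 28.4 and 33.2 CPM (1.17, 1.06 to 1.29), Col19a1 had 32 and 84 UMIs (1.71, 1.12 to 2.65) and Col4a4 had 47 and 91 UMIs (1.26, 0.877 to 1.83). The wide intervals of the genes with few UMIs leave their order undecided.

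**Figure D3:**
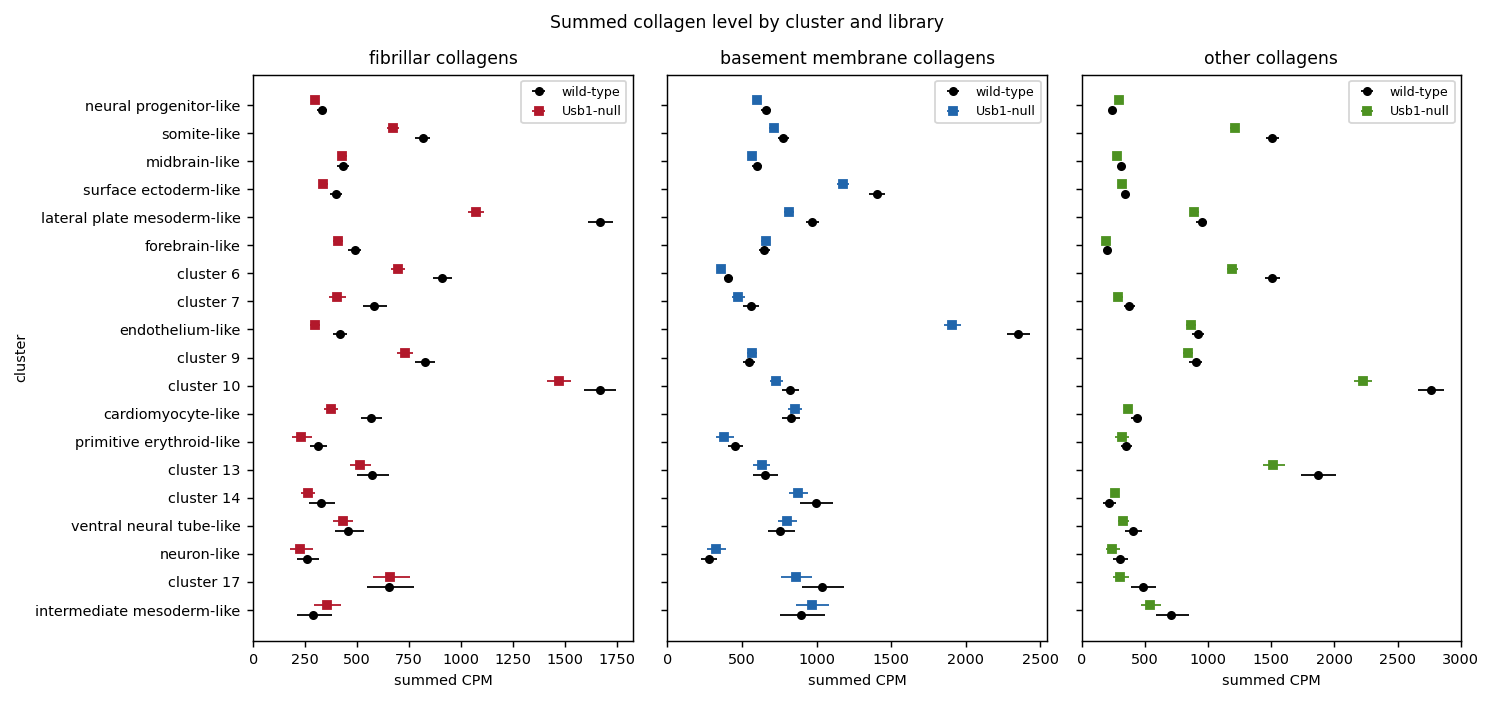
Summed CPM of fibrillar, basement membrane and other collagens in each compared cluster, for the wild-type (black circles) and Usb1-null (coloured squares) libraries, with 95% Poisson intervals. Lateral plate mesoderm-like cells show the widest gap in fibrillar collagens (1667 and 1071 CPM), and endothelium-like cells the highest basement membrane sums (2352 and 1909 CPM).

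Within clusters, summed collagen was lower in the Usb1-null library in 19 of 19, with ratios from 0.77 in cluster 7 to 0.988 in intermediate mesoderm-like cells. Fibrillar collagens had a ratio below 1 in 17 of 19 clusters and a counting interval below 1 in 12. The ratio was lowest in lateral plate mesoderm-like cells at 0.643 (0.61 to 0.677), followed by cardiomyocyte-like cells at 0.656 (0.579 to 0.743). In midbrain-like cells it was 0.996 (0.913 to 1.09). Basement membrane collagens had an interval below 1 in 9 of 19 clusters, and were lowest in endothelium-like cells at 0.812 (0.776 to 0.849). Other collagens had an interval below 1 in 10 clusters and above 1 in neural progenitor-like cells, at 1.22 (1.1 to 1.35). In these cells Col25a1 had 64.2 and 120.1 CPM, a ratio of 1.87 (1.55 to 2.27).

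Counted over single genes, 279 pairs of a collagen and a cluster held at least 50 UMIs. The interval lay below 1 in 83 (29.7%), beside 13.2% of all 142655 such pairs of a gene and a cluster, and above 1 in 18 (6.45%), beside 11%. Fibrillar genes gave 38 of 109 pairs below 1 (34.9%) and 3 above, basement membrane genes 23 of 92 (25%) and 10 above, and other genes 22 of 78 (28.2%) and 5 above. Of the 155 pairs above the upper bound of the erythroid-like level in both libraries, 52 lay below 1 (33.5%) and 10 above (6.45%), beside 16.9% and 12% of 27216 such pairs of all genes. Pairs of a gene share libraries and are not independent. The summed ratio in the erythroid-like cells was 0.83 (0.731 to 0.941), close to that of all cells, and the part of free RNA in the other ratios was not tested.

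Ratios were also set beside gene length. Collagen genes spanning less than 100 kb had a summed ratio of 0.761 (0.739 to 0.782, 11 genes) and those of 100 kb or more of 0.883 (0.872 to 0.894, 21 genes). Over all genes with at least 100 UMIs the sums gave 0.992 and 1.01, and 13.6% of the 3753 shortest genes (up to 10.4 kb) were lower by 1.5-fold, against 1.78% of the 3754 longest (from 62.9 kb). The shortest genes held 0 collagens and were also more often higher by this fold (9.06% against 5.06%), and of the genes from 10.4 to 25.2 kb, where Col1a1 lies with 2 other collagens, 4.5% were lower, and of those from 25.2 to 62.9 kb 1.81%. Spearman's rho of span and log2 ratio, a description across genes, was 0.18 over 15013 genes and 0.32 over the 32 collagens. Col1a1 spans 16.8 kb, Col3a1 38.2 kb and Col1a2 36.7 kb, whereas Col4a6 spans 309 kb and Col4a5 214 kb. Col5a2, with 129 kb, and Col5a1, with 153 kb, were alike in span and had ratios of 0.66 and 0.975. The part of length in the ratios was not tested further.

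Pairs of chain genes of one collagen type were compared within each library, where the library's total UMIs do not enter. Type I collagen has more of the chain made by Col1a1 than of that made by Col1a2, yet Col1a1 had fewer UMIs than Col1a2, with a ratio of 0.548 (0.502 to 0.598) in the wild-type and 0.412 (0.377 to 0.45) in the Usb1-null library. Over wild-type clusters the ratio ran from 0.067 in cluster 6 to 1.13 in lateral plate mesoderm-like cells. It reached 0.777 (0.66 to 0.914) in the latter cells of the Usb1-null library. The low end rests on 13 Col1a1 UMIs among 1717832 in cluster 6. Wild-type erythroid-like cells had 8 among 702364, so this Col1a1 level is not read as expression. Col4a1 and Col4a2 start head to head on chromosome 8, at 11198423-11312826 and 11312805-11449287. Their ratio was 1.43 (1.37 to 1.5) in the wild-type and 1.66 (1.59 to 1.73) in the Usb1-null library, with cluster medians of 1.44 and 1.73.

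The ratio of Col5a1 to Col5a2 differed between the libraries, with 0.38 (0.352 to 0.409) and 0.561 (0.525 to 0.598). In lateral plate mesoderm-like cells it was 0.23 (0.192 to 0.275) and 0.259 (0.219 to 0.306), with overlapping intervals. Col4a5 and Col4a6 had 0.895 (0.846 to 0.947) and 0.804 (0.77 to 0.839), but 0.871 and 0.868 with each cell thinned to 500 UMIs. Col9a1 exceeded Col9a3 by 7.8 (6.37 to 9.62) and 7.25 (6.13 to 8.63), and in cluster 17 the ratios were 0.667 (0.293 to 1.46) and 0.722 (0.325 to 1.56), with intervals that include 1. Col6a1 and Col6a2, with 41 and 60 wild-type UMIs, had ratios of 0.683 (0.448 to 1.03) and 0.465 (0.322 to 0.664), which overlap.

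**Figure D4:**
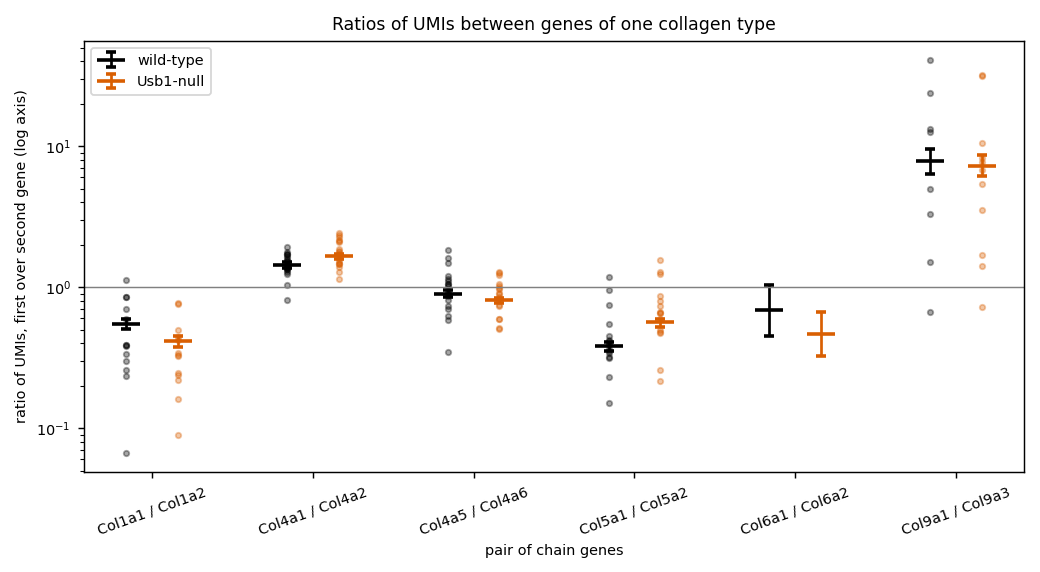
Ratio of UMIs of the first over the second gene for 6 pairs of chain genes, on a log axis. Bars are whole-library ratios with 95% binomial intervals, and pale dots are single clusters with at least 30 UMIs of the pair. The Col5a1 to Col5a2 ratio stands at 0.38 in the wild-type and 0.561 in the Usb1-null library.

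Collagen chains are hydroxylated, folded and exported before the trimer is trimmed and crosslinked outside the cell, and 53 genes of these steps, of collagen receptors and of collagen turnover were examined. Of 48 with at least 100 UMIs, 2 were higher by 1.5-fold in Usb1-null cells (4.17%) and 3 were lower by it (6.25%), near the shares of all genes given above (6.95% and 5.43%). The median log2 ratio was 0.05, with 26 genes above 1 and 22 below. This median stood beside -0.16 for the collagens.

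Loxl2, a lysyl oxidase that crosslinks type IV collagen, was highest in ratio, with 62.4 and 101 CPM (1.62, 1.52 to 1.72). Plod2, which hydroxylates lysines of the chain ends, had 101 and 152 CPM (1.51, 1.43 to 1.59) and was 1 of the 15 hydroxylation genes. Loxl1 had 14.7 and 21.3 CPM (1.45, 1.27 to 1.66). The catalytic subunits of prolyl 4-hydroxylase were not alike. P4ha1 had 224 and 304 CPM (1.35, 1.31 to 1.4) and P4ha2 had 27.7 and 38 CPM (1.37, 1.24 to 1.51), whereas P4ha3 had 5.61 and 3.65 CPM (0.651, 0.502 to 0.844). Ppib, an isomerase that works with the prolyl 3-hydroxylase and was listed with the hydroxylation genes, had 536 and 378 CPM (0.704, 0.687 to 0.722). Pcolce, an enhancer of the removal of the fibrillar propeptide, had the lowest ratio, with 30.2 and 16 CPM (0.53, 0.472 to 0.595). Its target enzyme Bmp1 had 56.2 and 42.4 CPM (0.755, 0.699 to 0.816). Timp1, an inhibitor of matrix metalloproteases on the X chromosome, had 92 and 82 UMIs (0.58, 0.426 to 0.79).

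By step, folding and export had 9 of 9 genes with at least 100 UMIs and 0 past 1.5-fold in either direction. Among these Serpinh1, the collagen chaperone HSP47, had 335 and 348 CPM (1.04, 1.01 to 1.07). Of 7 receptors 0 passed 1.5-fold, and Itgb1, the shared beta chain of the collagen-binding integrins, had 368 and 353 CPM (0.959, 0.932 to 0.987). Of 7 turnover genes only Timp1 passed. At wild-type cluster shares Loxl2 alone was higher by 1.5-fold, and P4ha3, Timp1 and Pcolce were lower by it.

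**Figure D5:**
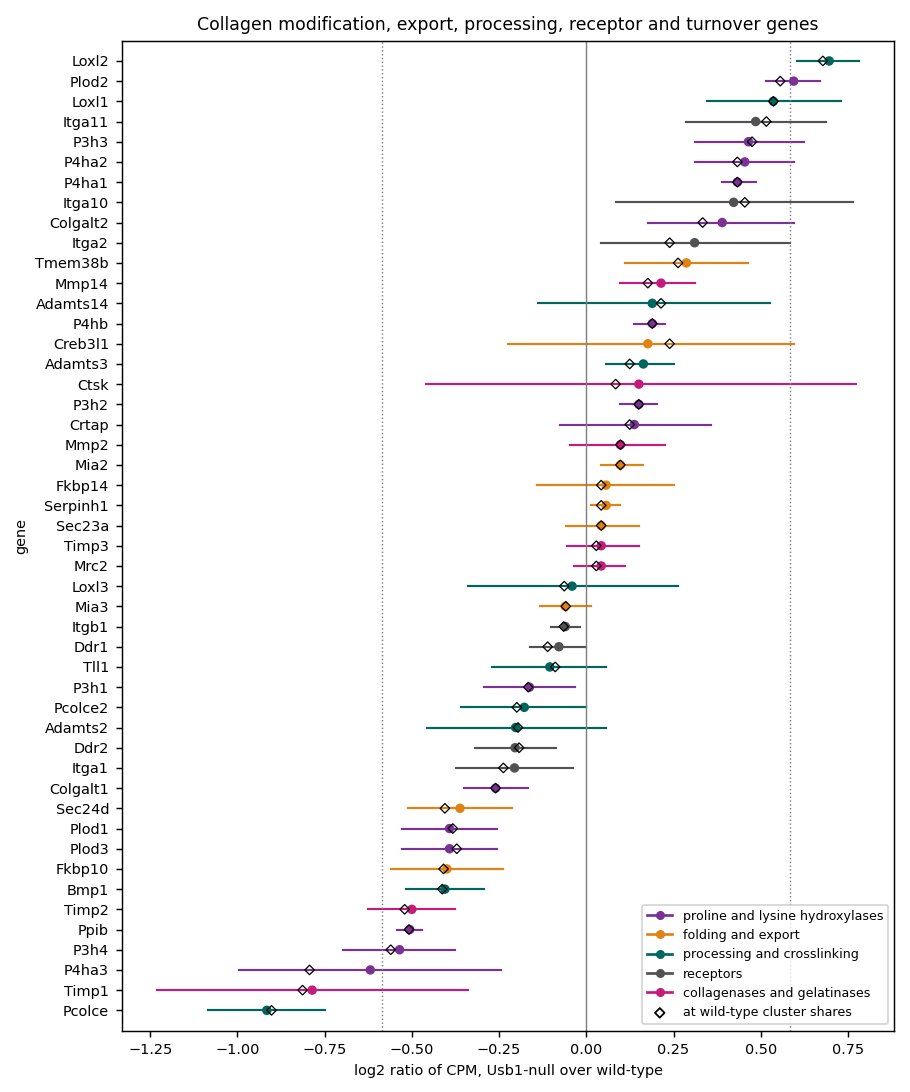
Log2 ratio of CPM, Usb1-null over wild-type, for 48 genes of collagen modification, export, processing, receptors and turnover with at least 100 UMIs, coloured by list. Dots carry 95% counting intervals, diamonds are ratios at wild-type cluster shares, and dotted lines mark 1.5-fold. Loxl2 and Plod2 lie past the upper line and P4ha3, Timp1 and Pcolce past the lower line.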

How the data were processed

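Single-cell suspensions of whole embryos were sequenced as 1 wild-type and 1 Usb1-null library. The authors deposited unnormalised UMI counts per gene and barcode for each library. The file header names Cell Ranger 6.1.2 and the submitters' processing notes name Cell Ranger 2.1.1 with the mm10 genome, and no source used here says whether intronic reads were counted. Every barcode held at least 500 UMIs.

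Cells with 200 to 6000 detected genes and under 30% mitochondrial UMIs were kept. For clustering, 2000 variable genes without collagens, mitochondrial, ribosomal protein and sex-linked genes entered 30 principal components (Scanpy 1.11.5), a Harmony correction for library rewritten in NumPy 2.4.6, and Leiden partition at a resolution of 0.6. A cluster took the name of a marker list that led all others in raised markers (3 or more) and that none exceeded in their share of the list or in genes among the cluster's 10 leading genes. Names are rebuilt here and may differ from the study's. This naming rule was set after the clusters were seen. Scrublet called 1025 wild-type and 559 Usb1-null doublets, which stayed in the main values and were taken out for comparison.

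For each gene, the UMIs of all cells of a cluster in a library were added up and given as CPM. Intervals are 95% exact Poisson intervals for levels and exact binomial intervals for shares and ratios. The ratio intervals were tried only on simulated Poisson counts, which follow the model of the intervals and hold no spread between embryos. Ratios at wild-type cluster shares weight clusters with at least 20 cells per library by their share of wild-type UMIs. Where shares of cells with a UMI are given as thinned, each cell was drawn down to 500 UMIs. Gene coordinates are from GENCODE M21 (GRCm38). The members and gene lists were chosen with earlier results of these data known. Genes were named by rule, as the 10 collagens with the most UMIs, the 5 highest and 5 lowest ratios and all past 1.5-fold among those with at least 100 UMIs, the leading collagens of each cluster, and the chain pairs. Of the collagen-modifying and related genes, the rule took the 3 highest and 3 lowest ratios and all past 1.5-fold. Col7a1, Col16a1, Col24a1, P4ha1, P4ha2, Bmp1, Serpinh1, Ppib and Itgb1 fell outside the rule and were named after their values were seen. Alternatives changed the cells kept, doublets, scaling, depth, clustering and bounds on UMIs and fold.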

Additional observations from a re-analysis of the deposited data

Results flagged for a closer look

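For 5 collagens the ratio of Usb1-null over wild-type lay on opposite sides of 1 in different clusters, with counting intervals clear of 1 on both sides. The difference between clusters was not tested, and with 1 library per genotype it has no replicate check. They were picked from 279 pairs of a collagen and a cluster, as each gene's highest and lowest ratio with an interval clear of 1. Col25a1 had a ratio of 1.87 in neural progenitor-like cells (148 and 462 UMIs) and of 0.695 in cluster 9. Col13a1 had 2.05 in neural progenitor-like cells, from 12 and 41 UMIs, and 0.69 in cluster 13. Col5a1 had 1.76 in surface ectoderm-like cells, from 37 and 101 UMIs, and 0.777 in lateral plate mesoderm-like cells. Col4a1 had 1.99 in neuron-like cells, from 19 and 34 UMIs, and 0.767 in forebrain-like cells. Some of these levels were near those of the primitive erythroid-like cells and are not read as expression, namely both of Col4a1, Col5a1 in surface ectoderm-like cells and Col13a1 in neural progenitor-like cells. Col11a1 had 1.3 in midbrain-like cells and 0.835 in lateral plate mesoderm-like cells.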

How the results depend on the processing

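No paired analysis was possible because each genotype had 1 library. With at least 1000 genes per cell the ratios were 0.776 for fibrillar, 0.896 for basement membrane, 0.808 for other and 0.83 for all collagens, and Col4a5 turned from 1.05 to 0.986. At wild-type cluster shares basement membrane collagens gave 0.893. With cells thinned to 500 UMIs other collagens gave 0.838, and without mitochondrial, ribosomal, globin and sex-linked genes all collagens gave 0.848. The cause of these shifts was not tested, and each group total stayed below 1 in the 8 alternatives run.

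The bound of 100 UMIs was applied anew where cells were removed or thinned, which lowers the number of genes counted. Collagens higher by 1.5-fold numbered 0 without doublets, with thinned cells, with at least 500 UMIs or at a fold of 2, 2 at a looser fold than 1.5 and 3 with at least 20 UMIs. At wild-type cluster shares without doublets they numbered 0. Those lower numbered 6 with at least 20 UMIs, 9 at the looser fold and 0 at a fold of 2. Of the pathway genes, those higher numbered 1 without the listed gene classes, 1 at wild-type cluster shares and 5 with thinned cells, where Itga10 turned from 1.34 to 0.958. The fibrillar ratio in lateral plate mesoderm-like cells was 0.733 with finer clusters and 0.718 without doublets, and in somite-like cells 0.91 with finer clusters. These clusters hold other sets of cells, since the lateral plate one went from 1197 wild-type cells to 717 and 679 and the somite-like one from 1524 to 499. In thinned Usb1-null cells the chain ratios were 0.365 for Col1a1 to Col1a2, 1.77 for Col4a1 to Col4a2, 0.868 for Col4a5 to Col4a6 and 5.33 for Col9a1 to Col9a3. With pairs held to levels above the erythroid-like one in both libraries, added after seeing the data, 52 and not 83 lay below 1 and 10 and not 18 above, over fewer pairs. Of 224 further values of single collagens, 209 stayed within their counting interval, 14 moved outside it and 1 changed sides.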
